A study of Mus musculus with 20 samples.

Results

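The enzymes of histidine catabolism are Hal, Uroc1, Amdhd1 and Ftcd, and each was followed here across mouse liver and liver tumours. The genes were found by symbol, as the probe sets that the array's annotation pairs with 1 of these symbols and no other, which gave 6 of the 45037 probe sets and 4 of the 18193 genes measured. Hal and Ftcd have 1 probe set each, Uroc1 and Amdhd1 have 2. For those genes the brighter probe set stands for the gene, and the other is described beside it.

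The study measured mRNA on Affymetrix arrays in snap-frozen liver of male C57BL/6 mice with a conditional knockout of Apc (labelled conditional APCko), whose protein takes part in the degradation of beta-catenin and thereby holds Wnt signalling in check. Its 4 groups of 5 samples were adenomas from mice on phenobarbital (APCko_Adenoma), carcinomas from mice without treatment (APCko_Carcinoma), non-tumour liver from mice on phenobarbital (PB_NT) and non-tumour liver from mice without treatment (H2O_NT). Per the protocols in the labels, every mouse received 1 intraperitoneal dose of 0.75 mg tamoxifen at an age of 6 weeks, and after 1 week a diet of standard chow or of chow with 0.05% phenobarbital, an activator of the nuclear receptor CAR, was given for 9 months. The series' design text names DEN, a liver carcinogen, in place of tamoxifen, and the untreated non-tumour group is called H2O although its protocol names chow. All 4 groups carry the conditional allele, and no group without it was analysed here. Only the titles of the tumour samples name APCko, and whether Apc was lost in the non-tumour samples was not tested. What drives the recombinase was not stated in the labels. Adenomas all came from mice on phenobarbital and carcinomas all from untreated mice, so tumour stage and diet cannot be told apart between the tumour groups. Nothing in the labels ties the samples to separate animals. The p-values below set differences between groups against the spread of these samples within groups, which may not be the spread between animals.

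In textbook biochemistry, histidine is broken down in the liver in a fixed order. HAL, histidine ammonia-lyase, removes ammonia from histidine and leaves urocanate, UROC1 (urocanate hydratase) turns urocanate into imidazolonepropionate, and AMDHD1 (imidazolonepropionase) opens its ring to give formiminoglutamate. FTCD moves the formimino group to tetrahydrofolate, which feeds the folate one-carbon pool, and frees glutamate. The pathway is a hepatocyte function, and Hal is also known from the epidermis, where urocanate absorbs ultraviolet light.

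Arrays of non-tumour liver resembled each other closely, with correlations over all genes, each by its brightest probe set, between 0.985 and 0.995 within and between both diets. Adenoma arrays correlated with phenobarbital non-tumour arrays at 0.953 to 0.962, and carcinoma arrays with untreated non-tumour arrays at 0.732 to 0.822. A panel of 21 hepatocyte markers had a mean log2 level of 13.44 to 13.61 in adenomas and 6.30 to 11.17 in carcinomas, against 13.70 to 13.79 in phenobarbital liver and 13.85 to 14.00 in untreated liver. Carcinoma array 2 held the lowest of these values and carcinoma array 5, at 8.75, the next. Untreated arrays 3 and 4 stood apart from the other untreated arrays by their zonation markers: Glul, glutamine synthetase of the pericentral hepatocytes, had log2 values of 12.39 and 12.25 there and 13.13 to 13.37 on the other 3. Apc itself had log2 values of 8.79 to 9.25 in adenomas and 10.53 to 10.97 in carcinomas, against 8.43 to 8.71 in phenobarbital liver and 8.64 to 8.97 in untreated liver. Whether its probe set lies inside the deleted part is not given here, so these values do not check the knockout.

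Hal, Amdhd1 and Ftcd lie on chromosome 10 and Uroc1 on chromosome 6. Hal and Amdhd1 are next to each other on opposite strands, with no other gene of the RefSeq table that was measured between them, and Ftcd lies elsewhere on the chromosome. The 250 bases before each gene's start, from RefSeq on GRCm38.p6, are shown because all 4 genes moved together in the tumours, and they let the starts of genes with a like change be compared. The windows are chr10:93488518-93488767 on the plus strand for Hal, chr6:90333039-90333288 on the plus strand for Uroc1, chr10:93540034-93540283 on the minus strand for Amdhd1 and chr10:76575398-76575647 on the plus strand for Ftcd. Each is printed 5′ to 3′ in the direction of the gene, with capitals for matches to 6 motifs.
Hal: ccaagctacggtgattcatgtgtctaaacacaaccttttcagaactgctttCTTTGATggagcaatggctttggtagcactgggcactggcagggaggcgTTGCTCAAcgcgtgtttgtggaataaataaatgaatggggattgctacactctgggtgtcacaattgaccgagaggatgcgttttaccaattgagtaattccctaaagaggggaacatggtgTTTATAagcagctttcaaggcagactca
Uroc1: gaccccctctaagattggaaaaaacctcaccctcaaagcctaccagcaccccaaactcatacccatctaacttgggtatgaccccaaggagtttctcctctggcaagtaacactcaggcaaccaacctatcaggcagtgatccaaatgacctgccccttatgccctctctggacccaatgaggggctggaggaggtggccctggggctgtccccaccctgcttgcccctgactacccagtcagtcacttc
Amdhd1: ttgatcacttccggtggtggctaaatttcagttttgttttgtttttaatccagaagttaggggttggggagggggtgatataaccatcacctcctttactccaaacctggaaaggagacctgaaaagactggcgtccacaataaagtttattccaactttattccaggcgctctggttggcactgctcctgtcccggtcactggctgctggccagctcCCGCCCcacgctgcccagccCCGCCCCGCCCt
Ftcd: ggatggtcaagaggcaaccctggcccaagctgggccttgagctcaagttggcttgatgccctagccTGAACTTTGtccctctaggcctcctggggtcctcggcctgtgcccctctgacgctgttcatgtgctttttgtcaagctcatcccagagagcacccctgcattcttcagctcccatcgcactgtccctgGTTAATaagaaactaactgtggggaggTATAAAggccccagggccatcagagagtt
The motifs were searched on both strands as exact letters. The box bound by the basal machinery was read as TATAAA. For the liver factor HNF4 the letters were CAAAGTNCA, for HNF1 they were GTTAAT, and for C/EBP proteins TTGCNNAA. The factors TCF and LEF, which carry Wnt signals, were given CTTTGAT, and the GC box was read as GGGCGG. Counting positions from the gene's start, the Hal window holds the TATA letters on the reverse strand at -28 to -23, the C/EBP letters at -150 to -143 and the TCF/LEF letters at -199 to -193. In the Ftcd window the TATA letters stand at -29 to -24, the HNF1 letters at -56 to -51 and the HNF4 letters, on the reverse strand, at -184 to -176. Amdhd1 has 3 GC boxes on the reverse strand, of which those at -12 to -7 and -7 to -2 share a base and another stands at -32 to -27, and the Uroc1 window holds none of the 6. Among all 32851 RefSeq windows of this length, 12.4% hold the TATA letters, 1.19% the HNF4 letters, 6.43% the HNF1 letters, 9.56% the C/EBP letters, 3.21% the TCF/LEF letters and 32.7% a GC box. The motifs were chosen after the sequences were seen, so these shares cannot say whether a match is unusual. GC content was 45.6% for Hal, 55.6% for Uroc1, 53.2% for Amdhd1 and 56.0% for Ftcd, against a median of 52.4% over all windows. No motif was matched in all 4 windows.

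In non-tumour liver the 4 genes were among the brightest on the array, and 9 months of phenobarbital did not move any of them past the test. Hal had log2 values of 11.35, 11.31, 11.21, 11.45 and 11.45 on the 5 phenobarbital arrays, against 11.60, 11.65, 11.83, 12.46 and 11.53 on the untreated arrays. Every phenobarbital array lay below every untreated one, with untreated array 4 well above the rest. For Uroc1, phenobarbital arrays gave 11.79, 11.87, 11.87, 11.81 and 11.79, against 11.85, 11.85, 11.93, 12.25 and 11.83 in untreated liver, and the groups overlapped. Amdhd1 had 10.84, 11.04, 10.92, 10.95 and 10.99 in phenobarbital liver, against 11.17, 11.11, 11.31, 11.68 and 11.07 in untreated liver. Its groups did not overlap on this brighter probe set, the phenobarbital arrays again being the lower ones. They did overlap on the dimmer one, at 8.60 to 8.99 in phenobarbital liver and 8.96 to 9.78 in untreated liver. Ftcd had 11.70, 11.98, 11.63, 11.93 and 11.81 in phenobarbital liver, against 11.89, 12.00, 12.09, 12.07 and 11.94 in untreated liver, with overlap. The brighter probe sets of all 4 genes stood at the 95.7th to 98.7th percentile of their array in these 10 livers.

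Phenobarbital minus untreated liver came to -0.46 ± 0.38 for Hal, -0.11 ± 0.19 for Uroc1, -0.32 ± 0.64 for Amdhd1 and -0.18 ± 0.30 for Ftcd (log2 fold ± SE in limma's fit over all groups, n = 5 each). None of the 4 passed at an adjusted p of 0.05 in limma, each with an adjusted p of 1, and none had an unadjusted p under 0.05, while 39 genes, 0.214% of those tested, passed and 1074 had an unadjusted p under 0.05. Hal and Amdhd1 are 2 of the 407 genes, 2.24% of all, whose phenobarbital arrays all lay below the untreated ones. The dimmer probe sets did not pass in limma over all probe sets, at 0.16 ± 0.17 for Uroc1 (adjusted p = 0.99) and -0.48 ± 0.28 for Amdhd1 (adjusted p = 0.88). The 95% interval of the log2 fold ran from -1.26 to 0.34 for Hal, from -0.52 to 0.29 for Uroc1, from -1.66 to 1.02 for Amdhd1 and from -0.82 to 0.45 for Ftcd. These SEs and intervals pool each gene's spread over all 4 groups, tumours included. For Amdhd1 the SD was 0.08 in phenobarbital and 0.24 in untreated liver, against 2.06 in adenomas and 0.75 in carcinomas. Over the settings varied, the lowest adjusted p in limma was 0.2 for Hal, 0.61 for Uroc1, 0.21 for Amdhd1 and 0.36 for Ftcd. Without untreated arrays 3 and 4, the fold of Hal was -0.24 and that of Amdhd1 -0.17, each closer to 0 by over 1.5 times. Those arrays also had a higher mean level of the 20 periportal markers, 12.03 and 12.45, against 11.84 to 11.87 on the other untreated arrays, and the part of zonation in the lower Hal and Amdhd1 values was not tested.

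All 4 genes fell in both tumour types, and no tumour array of any of them reached the level of a non-tumour array. On the brighter probe sets, the Hal arrays of adenomas and carcinomas overlapped, all 5 adenomas lay above all 5 carcinomas for Uroc1 and Ftcd, and the 5 adenomas ranged from within the carcinoma values to well above them for Amdhd1. Differences between the folds of these genes were not tested. In carcinomas the log2 folds of the brighter probe sets ran from -7.39 to -6.06, and those of the dimmer probe sets were -4.82 for Amdhd1 and -2.92 for Uroc1. In bulk tissue, fewer cells of a type and less RNA per cell cannot be told apart.

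**Figure D1:**
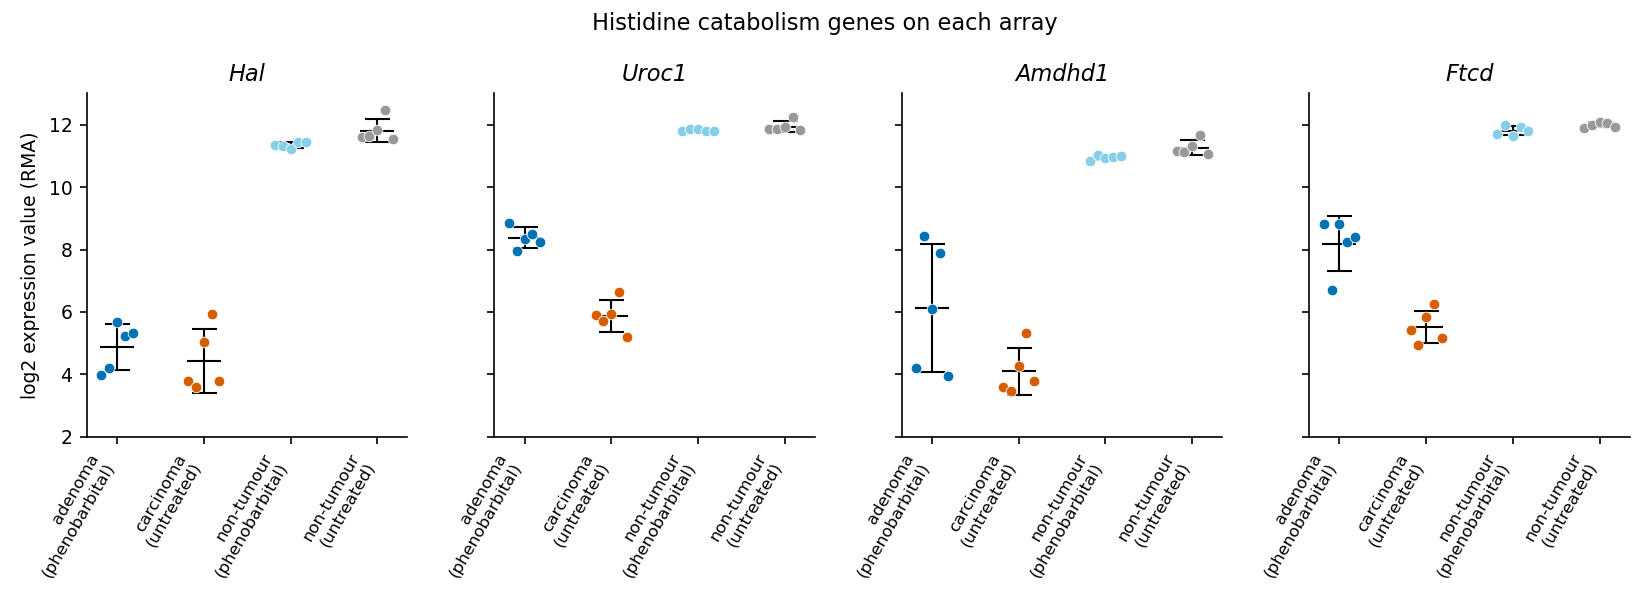
The log2 expression value (RMA) of Hal, Uroc1, Amdhd1 and Ftcd on each array, 1 point an array, with the mean and SD of each group of 5 in black. Non-tumour arrays sit between 10.84 and 12.46 for all 4 genes, Hal is low in both tumour groups, Uroc1 and Ftcd are higher in adenomas than in carcinomas, and Amdhd1 is spread between 3.96 and 8.44 in adenomas.

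Hal, the entry step, had log2 values of 3.99, 4.20, 5.67, 5.24 and 5.32 in the 5 adenomas, against 11.21 to 11.45 in phenobarbital liver. Adenomas 1 and 2 were the dim ones. The log2 fold was -6.47 ± 0.38 (88.5-fold lower, adjusted p = 9.3e-10 in limma), rank 2 of all falls among the 18193 genes. Carcinomas gave 3.78, 3.58, 5.04, 5.92 and 3.80, against 11.53 to 12.46 in untreated liver. Carcinomas 3 and 4 were the brighter ones and the other 3 lay close together near the low end of the array. Hal was lower in carcinomas by a log2 fold of -7.39 ± 0.38 (168-fold, adjusted p = 1.8e-12 in limma), rank 5 of all falls in that comparison. Between the tumour groups the Hal arrays overlapped, at a mean of 4.89 ± 0.74 in adenomas and 4.43 ± 1.01 in carcinomas (SD, n = 5). The difference of 0.46 had a 95% interval from -0.34 to 1.26 and an adjusted p of 0.30 in limma. Its tumour effect in adenomas exceeded that in carcinomas by 0.92 ± 0.54, with an interval from -0.21 to 2.06 and an adjusted p of 0.17 in limma. Both calls turned on carcinoma array 4, the brightest: without it the difference between tumours was 0.83 (adjusted p = 0.033) and the difference of effects 1.30 (adjusted p = 0.023).

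Uroc1, the second enzyme, had 8.85, 7.94, 8.34, 8.51 and 8.25 in adenomas, against 11.79 to 11.87 in phenobarbital liver. Every adenoma was dimmer than every non-tumour array. The log2 fold was -3.45 ± 0.19 (10.9-fold lower, adjusted p = 4.6e-10 in limma). In carcinomas Uroc1 had 5.89, 5.71, 5.94, 6.65 and 5.21, against 11.83 to 12.25 in untreated liver. The carcinomas lay within 1.44 of each other, with array 4 the highest and still below every adenoma. Its fold of -6.06 ± 0.19 (66.8-fold lower, adjusted p = 1.9e-15 in limma) was the smallest of the 4 genes in carcinomas. Adenomas exceeded carcinomas by 2.50 ± 0.19 (adjusted p = 8.7e-10). The difference of the tumour effects was 2.61 ± 0.27 (adjusted p = 1.6e-07 in limma).

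The other Uroc1 probe set was dimmer and gave a smaller gap between the tumours. Its means were 5.34 ± 0.28 in adenomas and 4.79 ± 0.42 in carcinomas, against 7.87 ± 0.17 in phenobarbital liver and 7.71 ± 0.16 in untreated liver (SD, n = 5 each). Adenoma arrays, at 4.89 to 5.63, overlapped with carcinoma arrays, at 4.18 to 5.23. Both tumour falls passed in limma over all probe sets, at -2.53 ± 0.17 in adenomas (adjusted p = 3.6e-09) and -2.92 ± 0.17 in carcinomas (adjusted p = 6.9e-12). Adenomas exceeded carcinomas by 0.55 ± 0.17 (adjusted p = 0.0091), but the difference of the tumour effects, 0.38 ± 0.24, did not pass (adjusted p = 0.21). The larger adenoma level of Uroc1 relative to its non-tumour liver therefore rests on the brighter probe set. Its name ends in _s_at, an ending for probe sets that can bind more than 1 transcript. The dimmer probe set stood at the 37.7th to 51.6th percentile of an array in adenomas and the 24.5th to 44.3rd in carcinomas. The part of its low level, or of binding to other transcripts, was not tested.

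Amdhd1, the third enzyme, was the one on which the adenomas differed. Adenomas had 4.19, 8.44, 6.10, 7.90 and 3.96, against 10.84 to 11.04 in phenobarbital liver. Adenomas 1 and 5 were within the range of the carcinomas, adenomas 2 and 4 lay well above it, and adenoma 3 fell between. The SD was 2.06 in adenomas, against 0.08 in phenobarbital liver. As a group the adenomas were lower than their non-tumour liver by a log2 fold of -4.83 ± 0.64 (28.4-fold, adjusted p = 1.8e-05 in limma), rank 10 of all falls. Its carcinoma values were 3.61, 3.46, 4.27, 5.33 and 3.80, against 11.07 to 11.68 in untreated liver. The carcinoma fold was -7.17 ± 0.64 (144-fold lower, adjusted p = 5.9e-09 in limma), rank 12 of all falls. Adenomas exceeded carcinomas by 2.03 ± 0.64 (adjusted p = 0.010 in limma), although the arrays overlapped, and a fit of the tumour groups alone left this short of the threshold (adjusted p = 0.067). The difference of the tumour effects was 2.34 ± 0.90 (adjusted p = 0.040 in limma), a call that was lost in 16 of the 20 fits that each left out 1 array, with adjusted p between 0.050 and 0.079. Those 16 were the fits without any 1 of the untreated or phenobarbital non-tumour arrays, without carcinoma 1, 2 or 5, or without adenoma 2, 3 or 4, and the value over all 20 ran from 1.76 to 2.89.

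The dimmer Amdhd1 probe set put the adenomas in nearly the same order. It read 4.59, 6.31, 5.35, 6.03 and 4.65 in adenomas 1 to 5, so arrays 2 and 4 were again high and arrays 1 and 5 low. Carcinomas gave 3.90, 4.60, 4.69, 4.93 and 4.24. Its values were 8.60 to 8.99 in phenobarbital liver and 8.96 to 9.78 in untreated liver. In limma over all probe sets its folds were -3.42 ± 0.28 in adenomas (adjusted p = 5.3e-08) and -4.82 ± 0.28 in carcinomas (adjusted p = 7.9e-12). The difference of the tumour effects on this probe set was 1.39 ± 0.39 (adjusted p = 0.0076).

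**Figure D2:**
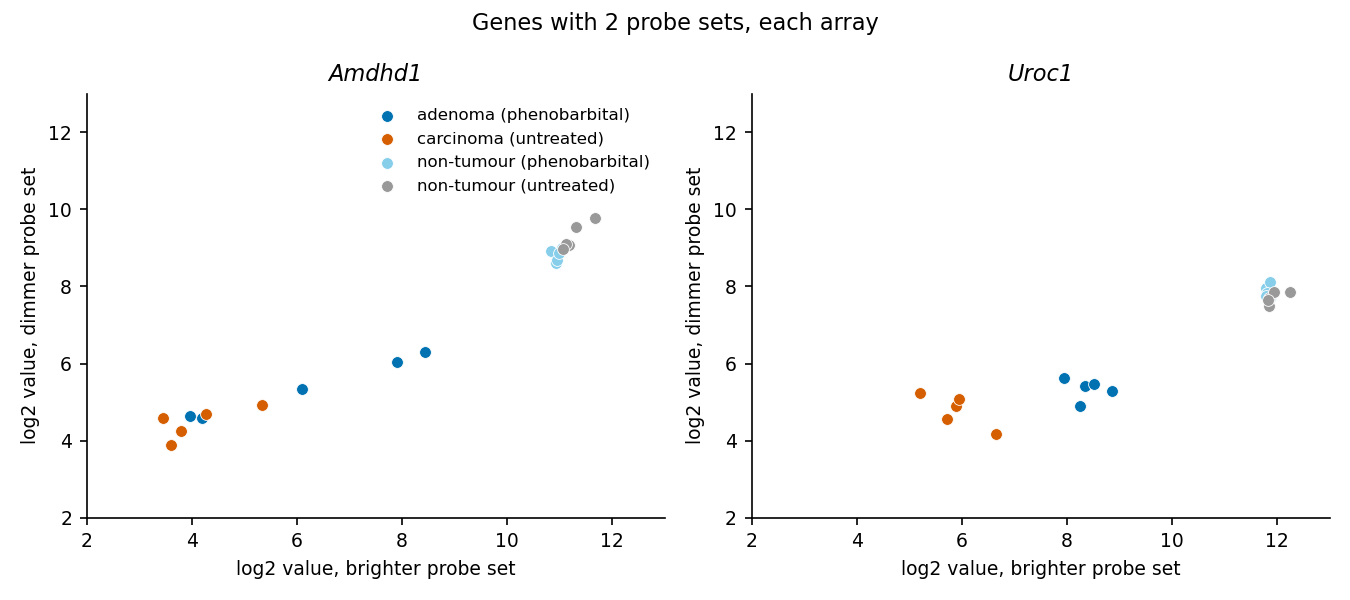
Each array's log2 value on the brighter probe set (horizontal axis) and on the other probe set (vertical axis) of Amdhd1 and Uroc1, with 1 point an array and colours for the 4 groups. For Amdhd1, adenomas 2 and 4 are high on both probe sets; for Uroc1 the adenomas lie between 7.94 and 8.85 on the brighter probe set and between 4.89 and 5.63 on the other.

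Ftcd, the last step and the link to folate, followed the brighter probe set of Uroc1. Adenomas had 8.83, 6.69, 8.81, 8.23 and 8.40, against 11.63 to 11.98 in phenobarbital liver. Adenoma 2 stood below the other 4, though still above every carcinoma. Ftcd was lower in adenomas by a log2 fold of -3.62 ± 0.30 (12.3-fold, adjusted p = 6.8e-08 in limma). Carcinomas had 5.41, 4.95, 5.83, 6.24 and 5.16, against 11.89 to 12.09 in untreated liver, and array 4 was again the highest carcinoma. The carcinoma fold was -6.47 ± 0.30 (88.9-fold lower, adjusted p = 4e-13 in limma). Adenomas exceeded carcinomas by 2.67 ± 0.30 (adjusted p = 2.2e-07 in limma). The tumour effects differed by 2.86 ± 0.43 (adjusted p = 1.6e-05 in limma). The adenoma with the lowest Ftcd, array 2, also had the highest Amdhd1. It was the lowest adenoma on the brighter Uroc1 probe set, at 7.94, and the highest on the dimmer one, at 5.63.

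Counted together, 4 of 4 genes were lower in adenomas, where 11.2% of all genes tested were, and 4 of 4 were lower in carcinomas, where 37.6% were. Arrays of the 2 groups did not overlap for any of the 4, and the tumour arrays all lay below the non-tumour ones for 8.99% of all genes in adenomas against phenobarbital liver and for 27.8% in carcinomas against untreated liver. The median log2 fold of the 4 was -4.22 in adenomas and -6.82 in carcinomas, and the median over all genes was -0.03 in adenomas and -0.12 in carcinomas. Adenomas exceeded carcinomas for 3 of the 4, Uroc1, Amdhd1 and Ftcd, against 33.6% of all genes, and the same 3 passed the test of the difference of tumour effects with a positive sign, against 23.3% of all genes. These comparisons share groups: the difference between tumours uses the same tumour arrays as the tumour effects. The 4 genes were also chosen with earlier results of these data known. In carcinomas, Hal and Amdhd1 had values from the 6.8th to the 53.8th percentile of an array, and Uroc1 and Ftcd from the 39.4th to the 62.5th. Leaving out carcinoma array 2, the one with the lowest hepatocyte marker level, gave carcinoma folds of -7.18 for Hal, -6.02 for Uroc1, -7.02 for Amdhd1 and -6.33 for Ftcd.

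Markers of cell types differed in the tumours too. In adenomas 1 of the 21 hepatocyte markers was lower, Itih1 (-1.67 ± 0.39, adjusted p = 0.0037 in limma), the median over the markers was -0.18, and their mean level stayed between 13.44 and 13.61, against 13.70 to 13.79 in phenobarbital liver. The histidine genes had log2 folds of -6.47 to -3.45 in these same adenomas on the brighter probe sets, and of -2.53 on the dimmer one of Uroc1. The stellate and fibroblast markers had a mean level of 7.75 to 9.30 in adenomas, against 8.07 to 8.35 in phenobarbital liver, with 4 of 12 higher and 4 lower. Of 12 endothelial markers 2 were higher and 2 lower in adenomas, and of 12 macrophage markers 1 was higher and 5 were lower. All 19 cell cycle genes were higher in adenomas, with a mean level of 6.95 to 8.22, against 5.68 to 6.12 in phenobarbital liver. In carcinomas 21 of 21 hepatocyte markers were lower, with a median log2 fold of -4.53. Of 12 stellate and fibroblast markers 7 were higher and 2 lower there, with a median of 1.18 and folds from -1.96 upward. The highest of these folds was that of Acta2, smooth muscle actin (7.20 ± 0.48, adjusted p = 6.8e-11 in limma). The mean level of the stellate and fibroblast markers was 9.65 to 10.72 in carcinomas, against 7.86 to 8.72 in untreated liver. Of the 7 cholangiocyte markers, 3 were higher in carcinomas, with a mean level of 7.01 to 8.71, against 5.44 to 6.24 in untreated liver. Endothelial markers were lower in carcinomas for 9 of 12, with a median log2 fold of -1.55 and a mean level of 5.29 to 6.10, against 7.53 to 7.80 in untreated liver. Among 12 macrophage markers 4 were higher and 5 lower there, and 18 of 19 cell cycle genes were higher. Lymphocyte markers were higher for 4 and lower for 5 of 10 in carcinomas, neutrophil markers lower for 5 of 8 and adipocyte markers lower for 5 of 6. Of 9 keratinocyte markers 4 were higher and 3 lower in carcinomas, where Hal, an epidermal gene as well, was low. No marker is at 0 on this scale, and the part of cell makeup and of cell division in the falls was not tested.

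Other genes that handle histidine moved in both directions. The 16 measured genes cover histidine transport, histidine decarboxylation and histamine breakdown. They also include Hars and Hars2, which load histidine onto tRNA, and the carnosine genes Carns1, Cndp1 and Cndp2. In adenomas 4 of the 16 were higher and 2 lower, with a median log2 fold of -0.02. In carcinomas 4 were higher and 5 lower, with a median of -0.03. Hnmt, which methylates histamine, had an adenoma fold of -0.69 ± 0.37 that did not pass (adjusted p = 0.19) and was lower in carcinomas (-5.23 ± 0.37, adjusted p = 1.9e-10 in limma). Hdc, which makes histamine from histidine, had a fold of 0.08 in adenomas (adjusted p = 0.86) and was higher in carcinomas (0.84 ± 0.27, adjusted p = 0.0097 in limma). Maob, an amine oxidase of the histamine branch, was lower in carcinomas by a log2 fold of -6.63 ± 0.28 (adjusted p = 1.1e-13 in limma). Slc7a5, the light chain of an exchanger that carries large neutral amino acids, histidine among them, was higher in both tumours, at 1.80 ± 0.25 in adenomas (adjusted p = 3e-05) and 1.15 ± 0.25 in carcinomas (adjusted p = 0.00043). Slc3a2, its heavy chain, was higher in adenomas (1.98 ± 0.34, adjusted p = 0.00026 in limma). Slc38a3, a transporter of glutamine and histidine, had log2 values of 10.43 to 11.43 in adenomas, against 12.34 to 12.53 in phenobarbital liver, a fold of -1.55 ± 0.19 (adjusted p = 6.1e-06). It was lower in carcinomas too, by -5.09 ± 0.19 (adjusted p = 1.3e-14 in limma). Aldh7a1, an aldehyde dehydrogenase, was lower in adenomas by -0.65 ± 0.13 (adjusted p = 0.0015 in limma) and in carcinomas by -3.54 ± 0.13 (adjusted p = 2.2e-14).

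The folate genes downstream of Ftcd moved in both directions. Of 23 measured, 4 were higher and 10 lower in adenomas, and 8 were higher and 11 lower in carcinomas. Aldh1l1, which oxidises formyl-tetrahydrofolate, was lower in adenomas (-1.51 ± 0.23, adjusted p = 8.8e-05 in limma) and in carcinomas (-5.79 ± 0.23, adjusted p = 4.4e-14). Mthfd1, the cytosolic enzyme that interconverts one-carbon folates, was lower in adenomas (-0.96 ± 0.12, adjusted p = 1.1e-05) and in carcinomas (-2.82 ± 0.12, adjusted p = 1.1e-13). Of the mitochondrial enzymes, Mthfd2 was higher in adenomas (1.27 ± 0.21, adjusted p = 0.0002) and in carcinomas (1.10 ± 0.21, adjusted p = 0.00014), and Mthfd1l was higher by 1.19 ± 0.25 in adenomas and by 1.44 ± 0.25 in carcinomas. Gnmt, which methylates glycine and binds folate, was lower in adenomas (-1.65 ± 0.48, adjusted p = 0.016 in limma) and in carcinomas (-6.40 ± 0.48, adjusted p = 4.1e-10). Dmgdh, a mitochondrial enzyme that passes one-carbon units to folate, was lower by -6.60 ± 0.27 in carcinomas, and Ggh, which trims the glutamate tails of folate, was higher there by 1.58 ± 0.46.

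On the glutamate side, 6 of 15 genes were higher and 3 lower in adenomas, with a median log2 fold of 0.28, and 4 were higher and 10 lower in carcinomas, with a median of -1.45. Glul, a Wnt target in liver, had log2 values of 14.27 to 14.36 in adenomas and 13.11 to 13.81 in carcinomas, against 12.97 to 13.23 in phenobarbital liver and 12.25 to 13.37 in untreated liver. Its fold was 1.24 ± 0.18 in adenomas (adjusted p = 4.8e-05 in limma) and 0.56 ± 0.18 in carcinomas (adjusted p = 0.0094). Slc1a2, a glutamate transporter of pericentral hepatocytes, was higher in adenomas (3.20 ± 0.44, adjusted p = 2.5e-05). Slc1a5, a glutamine transporter, was higher in adenomas (3.02 ± 0.30, adjusted p = 7.1e-07) and in carcinomas (2.70 ± 0.30, adjusted p = 1.6e-07). Glud1, glutamate dehydrogenase, had a fold of -0.32 in adenomas that did not pass (adjusted p = 0.29) and was lower in carcinomas (-2.41 ± 0.20, adjusted p = 2.8e-09 in limma). Gls2 and Sds, also on the lists, were not analysed here.

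Breakdown of other amino acids offered a comparison. Of 38 such genes 22 were lower and none higher in adenomas, with a median log2 fold of -0.76, and all 38 were lower in carcinomas, with a median of -4.67. In adenomas 1 of the 38 had a more negative fold than Uroc1, the histidine gene with the smallest fold: Gldc, the glycine-cleaving decarboxylase (-4.42 ± 0.29, adjusted p = 2.8e-09 in limma). Agxt, alanine-glyoxylate aminotransferase, came next at -2.56 ± 0.45 (adjusted p = 0.00033). In carcinomas 9 of the 38 had a more negative fold than Uroc1, among them Bhmt2 (-7.19 ± 0.41) and Aass (-7.17 ± 0.34), enzymes of methionine and lysine metabolism. Among 8 urea cycle genes, 7 were lower in adenomas and 8 in carcinomas. Arg1, arginase, fell by 5.81 in adenomas (SE 0.83, adjusted p = 4e-05) and Cps1, which starts the cycle, by 4.12 (SE 0.93, adjusted p = 0.0029), both further than Uroc1. Otc had a smaller adenoma fold of -2.38 ± 0.52 (adjusted p = 0.0024) and a carcinoma fold of -7.31 ± 0.52 (adjusted p = 2.2e-10).

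In adenomas the zonation lists went opposite ways. Of 20 periportal genes 14 were lower and none higher (median log2 fold -2.80), whereas 10 of 20 pericentral genes were higher and none lower (median 0.78). The 4 genes and all lists were chosen with earlier results of these data known, so the directions of these lists are not independent. Cyp2f2, a periportal cytochrome P450, fell by 5.93 in adenomas (SE 0.47, adjusted p = 3.7e-08 in limma), less than Hal. Of the 20 periportal genes 8 had an adenoma fold more negative than that of Uroc1. None of the pericentral genes or hepatocyte markers did. The lists share genes, and these 8 include Gldc, Cps1 and Arg1, already counted above with the amino acid and urea cycle genes. In carcinomas 18 of 20 periportal genes were lower and none higher (median -5.75). Of the 20 pericentral genes 15 were lower and 5 higher there (median -1.71).

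**Figure D3:**
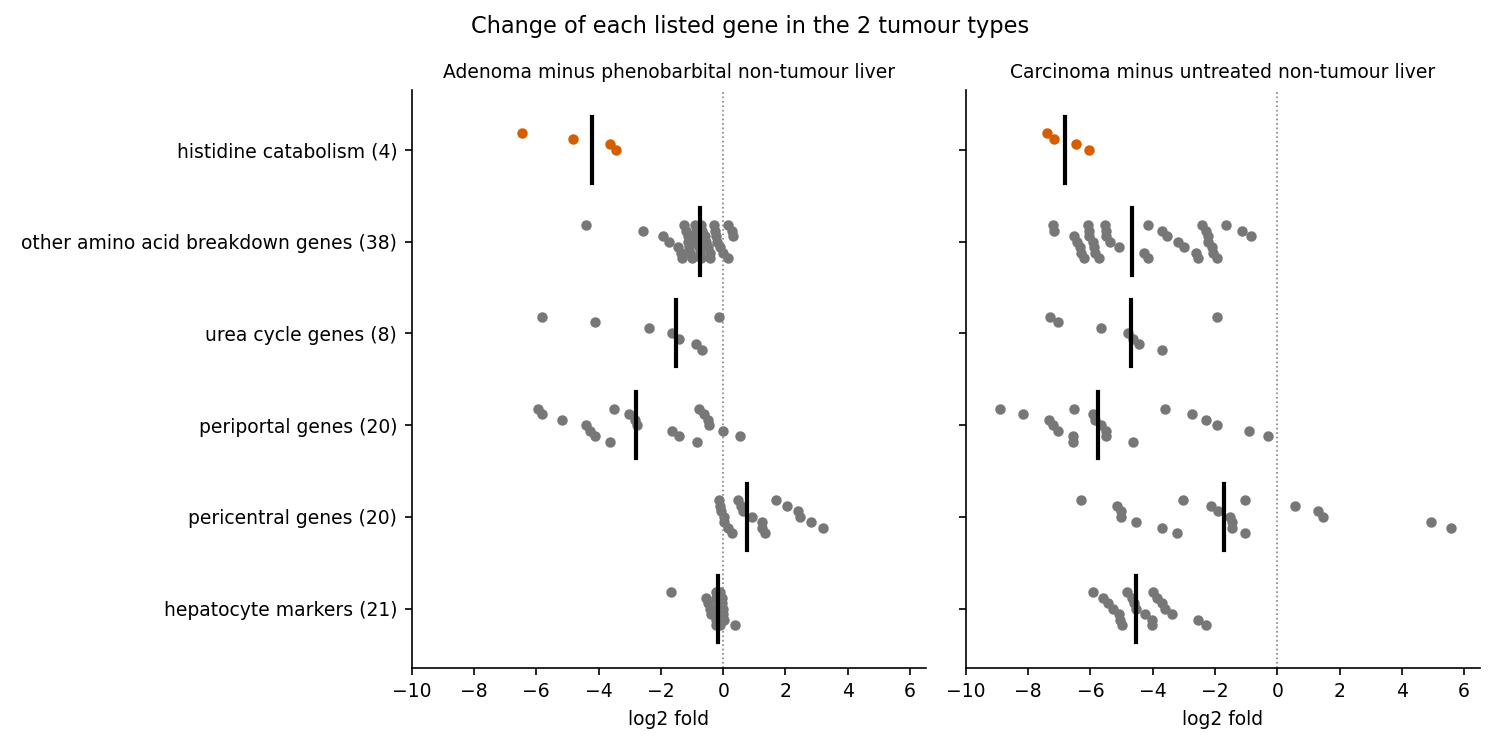
The log2 fold of every measured gene on 6 lists, with 1 point a gene and a black bar at the median of each list. Folds are adenomas minus phenobarbital non-tumour liver (left) and carcinomas minus untreated non-tumour liver (right). Genes on more than 1 list, Gldc and Cps1 among them, are drawn on each. In adenomas the 4 histidine genes (median -4.22) lie with the most negative periportal genes, while hepatocyte markers stay near 0 (median -0.18); in carcinomas all lists but the pericentral one have medians of -4.53 or lower.

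Of 20 regulators of hepatocyte metabolism, 4 were lower and 2 higher in adenomas, and 12 were lower and 4 higher in carcinomas. Hnf4a, a hepatocyte nuclear receptor whose motif letters occur in the Ftcd window, had log2 values of 12.47 to 12.88 in adenomas, against 12.55 to 12.66 in phenobarbital liver, a fold of 0.03 ± 0.17 (adjusted p = 0.91 in limma), and fell by 3.87 in carcinomas (SE 0.17, adjusted p = 2.5e-13). Cebpa, C/EBP alpha, was lower in adenomas (-1.09 ± 0.24, adjusted p = 0.0025) and in carcinomas (-4.42 ± 0.24, adjusted p = 3.8e-12). Klf15, a regulator of amino acid breakdown in fasting, was lower in adenomas (-0.91 ± 0.18, adjusted p = 0.0012) and in carcinomas (-4.44 ± 0.18, adjusted p = 7e-14). Ppara, a receptor that drives fat oxidation, had an adenoma fold of -0.21 (adjusted p = 0.64) and was lower in carcinomas (-4.80 ± 0.28, adjusted p = 9.7e-12). Onecut1, HNF6, was lower in adenomas (-2.12 ± 0.44, adjusted p = 0.0015 in limma). Prox1 and Foxa2, both known from liver development, were higher in carcinomas, by 3.16 ± 0.18 and 1.79 ± 0.17.

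Likeness of profiles was measured as the root mean square difference over the 20 arrays between log2 values centred on each gene's mean, and is a description across arrays that share groups. By this measure Uroc1, on its brighter probe set, and Ftcd were each other's nearest gene among all 18193, at 0.37 log2 units. The dimmer Uroc1 probe set was not compared in this way. Fam47e was close to both, at 0.56 from Uroc1 and 0.51 from Ftcd. Hal and Amdhd1, although next to each other on the chromosome, were 1.24 apart, Amdhd1 being rank 8 in Hal's order and Hal rank 7 in that of Amdhd1. Nearest to Hal were Elovl3, a fatty acid elongase, at 0.76, Hamp, the iron hormone hepcidin, at 0.97, Cyp2f2 at 1.11, Gldc at 1.15 and Etnppl at 1.16. Uroc1's list continued with 1810008I18Rik at 0.54, Mfsd4b1 at 0.69 and Hgfac at 0.70, and Ftcd's with Sucnr1 at 0.65, Mfsd4b1 at 0.68 and Apoa5 at 0.69.

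Amdhd1 was nearest to Etnppl, which breaks down phosphoethanolamine, at 0.48. Etnppl had log2 values of 5.35, 8.04, 6.35, 7.63 and 4.56 in adenomas 1 to 5, against 10.11 to 10.85 in phenobarbital liver. As for Amdhd1, adenomas 2 and 4 were the bright ones and adenomas 1 and 5 the dim ones. Upp2, uridine phosphorylase, was next at 0.92 and also peaked in those arrays, with 5.74, 9.71, 5.96, 9.44 and 6.87 in adenomas. Cps1 followed at 1.02, Gldc at 1.03 and Agxt at 1.06. Agxt had 9.18, 10.51, 8.78, 9.86 and 7.35 in adenomas, again highest in arrays 2 and 4. Gldc did not share this order, with 5.99, 6.98, 6.86, 5.22 and 5.18, since adenoma 4 was among its lowest. Cps1 had 7.53, 10.24, 9.56, 13.37 and 8.35, so adenoma 4 alone came close to the 13.81 to 14.01 of phenobarbital liver. Hal did not show this split, since its value in adenoma 2 was 4.20, below the median of its group.

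Genes on either side of the 4 were compared in their order along the chromosome. Around Hal and Amdhd1, the most negative fold among the 6 measured neighbours was the -0.61 of Gm32688 in carcinomas (adjusted p = 0.00087 in limma). Lta4h, on the Hal side, was higher in carcinomas (1.77 ± 0.11, adjusted p = 1.9e-11 in limma) and had an adenoma fold of -0.24 (adjusted p = 0.12). Ccdc38, on the Amdhd1 side, passed in neither tumour, with folds of -0.12 in adenomas (adjusted p = 0.43) and -0.16 in carcinomas (adjusted p = 0.18). Snrpf, beyond it, was higher in carcinomas by 1.74 ± 0.12 (adjusted p = 1.9e-10). Beside Uroc1, Zxdc passed in neither tumour, Klf15 and Aldh1l1 were lower as given above, and Chst13 was lower in carcinomas (-1.85 ± 0.18, adjusted p = 2.3e-08). Near Ftcd, the sterol enzyme gene Lss was lower in carcinomas (-3.01 ± 0.28, adjusted p = 8.8e-09) with an adenoma fold of -0.04, and the collagen genes Col6a2 and Col6a1 were higher in carcinomas, by 2.17 ± 0.25 and 2.19 ± 0.37.

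**Figure D4:**
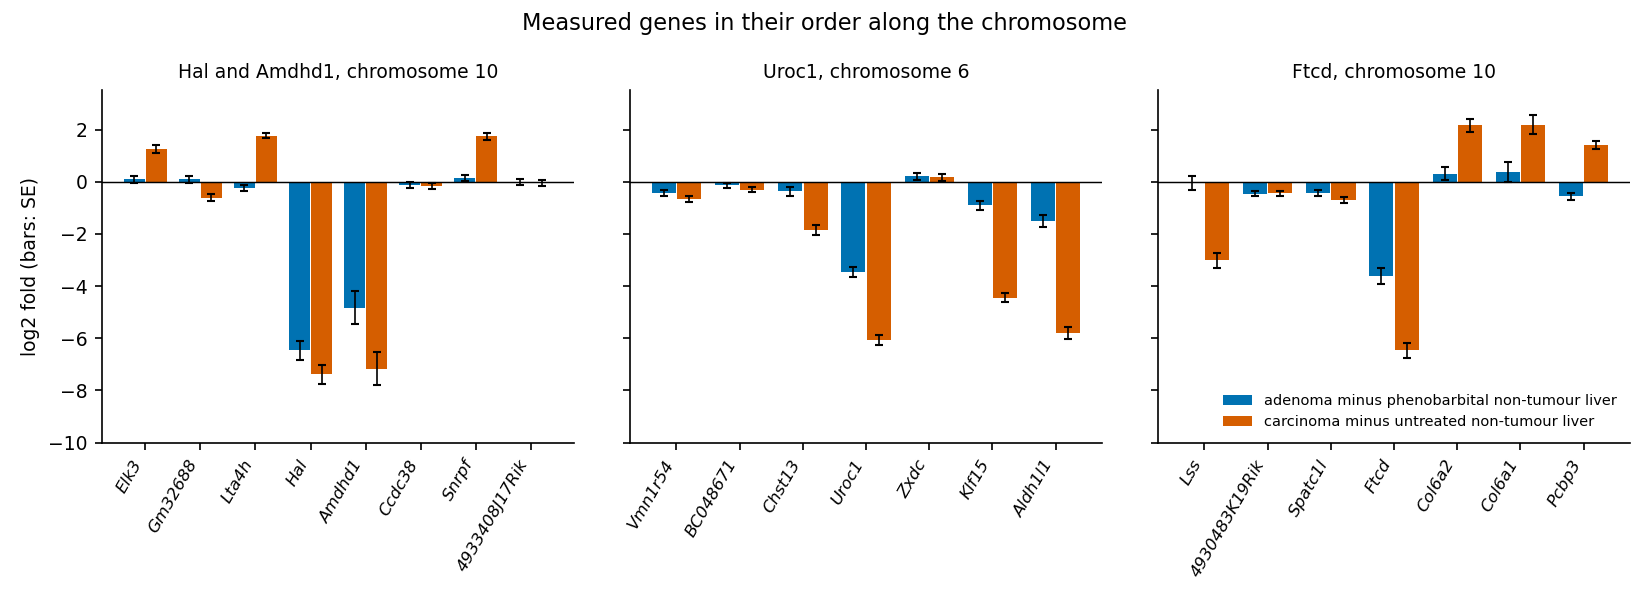
Log2 folds with SE of the 4 genes and their measured neighbours in chromosome order, with adenoma minus phenobarbital non-tumour liver in blue and carcinoma minus untreated non-tumour liver in orange. On the brighter probe sets, drawn here, all 4 genes have more negative folds than the measured neighbours outside the 4 in both tumour types. The dimmer probe set of Uroc1, not drawn, had a carcinoma fold of -2.92, less negative than those of Klf15 and Aldh1l1. Near Uroc1, at -6.06 in carcinomas, Klf15 and Aldh1l1 are also low there, at -4.44 and -5.79. Their adenoma folds are -0.91 and -1.51, against -3.45 for Uroc1.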

How the data were processed

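RNA of 20 liver and tumour samples was isolated with Trizol and labelled with biotin for Affymetrix arrays, as the labels' protocols state. The authors deposited log2 values for each probe set on each array. The submitters' processing notes name RMA and give no version. RMA corrects background, aligns the arrays' distributions and summarises probes, so a shift of all genes would be removed and folds of dim genes shrink. The table held 45037 probe sets with values from 2.67 to 15.09 and none missing. Precision is limited by the number of arrays.

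Probe sets were named through the platform annotation: 34945 had 1 symbol, 932 several and 9160 none, and 34741 of the first matched the RefSeq gene table of GRCm38.p6, used for names and gene order. A gene took its brightest probe set by mean over all arrays, after probe sets ending in _x_at were dropped where another existed. Groups came from the sample titles. Each of the 18193 genes was fitted over all 4 groups in limma 3.58.1 under R 4.3.3 (lmFit, then eBayes, both directions, 16 residual and 3.22 prior degrees of freedom) with Benjamini-Hochberg adjustment within a comparison at 0.05, and every adjusted p comes from this fit unless another is named. The procedure was tested on simulated data. The difference of tumour effects is adenoma minus phenobarbital liver less carcinoma minus untreated liver. Same-numbered samples did not deviate together (correlations between -0.11 and 0.07), so the numbers were not taken to pair samples.

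The 4 genes and all lists were chosen with earlier results of these data known, and the motifs after the sequences were seen. Besides the 4 genes, those named are up to 2 with the most positive and 2 with the most negative passing folds of a list, a fixed panel, the 5 nearest profiles and up to 3 measured neighbours on each side. The settings varied were dropping dim probe sets, the mean of all probe sets, every probe set tested, trend and robust eBayes, median centring, quantile normalization, array weights, a replicate block, fits of only the groups compared, each array left out, and untreated arrays 3 and 4 left out. Python 3.11.15, pandas 2.3.3 and matplotlib 3.10.9 handled tables and plots.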

Additional observations from a re-analysis of the deposited data

Results flagged for a closer look

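Among the 16 sets of 5 arrays examined for the 4 genes, an array stood far from the other 4 in 2, and chance marks about 1 set in 20. Uroc1 in untreated liver was highest on array 4, at 12.25, with the gap to the next array making up 0.746 of the group's range. The same array was also the highest of its group for Hal and Amdhd1, and had a low Glul of 12.25. Ftcd in adenomas was lowest on array 2, at 6.69, with a gap of 0.723 of the range.

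The tumour effects of 3 genes differed between adenomas and carcinomas in limma's interaction test. The adenoma effect minus the carcinoma effect was 2.61 for Uroc1, 2.34 for Amdhd1 and 2.86 for Ftcd on the log2 scale, with all 5 adenomas above all 5 carcinomas for Uroc1 and Ftcd but not for Amdhd1. On the dimmer probe set of Uroc1 the difference was 0.38 and did not pass (adjusted p = 0.21), and its tumour arrays overlapped. The call of Amdhd1 was lost in 16 of 20 fits that left out 1 array each, and without untreated arrays 3 and 4 (adjusted p = 0.094).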

How the results depend on the processing

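All 4 genes passed as lower in adenomas and in carcinomas under every alternative run, with log2 folds for single genes between -6.66 and -2.99 in adenomas and between -7.76 and -4.49 in carcinomas, and none passed between phenobarbital and untreated liver under any. The number of genes past the test in that last comparison moved most, to 205 with array weights and 265 in a fit of only the groups compared, against 39 in the fit reported, and to between 23 and 38 with 1 array left out, the lowest values being 25 without phenobarbital array 2 and 23 without phenobarbital array 3. With the mean of all probe sets the phenobarbital fold of Uroc1 turned to 0.02, against -0.11, as its 2 probe sets differ in sign there. Array weights also brought the Hal difference of tumour effects past the threshold (1.19, adjusted p = 0.031), and leaving out untreated arrays 3 and 4 lost that of Amdhd1 (2.20, adjusted p = 0.094). With 1 array left out, 3 to 4 of the genes exceeded their carcinoma level in adenomas and 2 to 4 passed for the difference of effects. Of 428 single-gene values recomputed, 406 kept their direction and side of the threshold. A fit with the replicate number as a block called 39 genes between phenobarbital and untreated liver, 4312 in adenomas, 12415 in carcinomas, 11180 between tumours and 8309 for the difference of effects, and changed no call of the 4 genes. Centring removes differences between the array medians over all probe sets. These medians were 5.61 to 5.63 in carcinomas and 5.54 to 5.57 in untreated liver, a gap small beside the folds of the 4 genes. Values near the low end of the array carry no detection call here, which limits the size of the largest falls.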
